A study of Mus musculus with 7 samples.

Results

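The 35 genes described here occupy the first and last rows of the authors' tables of gene contacts around Epha4, a limb bud gene for an ephrin receptor tyrosine kinase, on mouse chromosome 1. They were chosen by row position in the WT table, as all rows from Bard1 through Mir6351 (23 genes) and all rows from Utp14b through the last row, Dock10 (12 genes), of 103 genes in all. The rule was set with measured values in view, so the levels and differences below are descriptions without tests. For each gene the tables give 1 scaled contact value between its transcription start and an enhancer region. The position of that region and the scaling were not given in the sources used here. Of the 35 symbols, 34 were current RefSeq symbols on chromosome 1, and their row order was their order along the chromosome. March4 was found as an older name.

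Contacts were measured by capture Hi-C, in which chromatin is fixed, cut, religated and enriched for a region of interest, so that sequenced read pairs count how often 2 loci lay close together. The 5 tables come from WT limb buds and from limb buds carrying 1 of 4 serial CRISPR/Cas9 inversions near Epha4, named Inv1, Inv2, Inv3 and Inv4. All were forelimb and hindlimb buds of stage E11.5, with 10 embryos pooled in each library and 1 library per condition. The titles of these libraries also hold the word Distal. Contact maps, but no gene tables, were used for Inv1 with a deletion that its title names after CTCF (Inv1DelCTCF) and for Inv1 in embryonic stem cells (ESCs). The label fields name G4 ESC as the cell type of every library, give mutants no further genotype and do not say whether a WT chromosome was present beside the inverted one. Values listed from WT to Inv4 run in the order WT, Inv1, Inv2, Inv3, Inv4. With 1 library per condition, differences between tables have no replicate check, and no p-value is given.

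Enhancers act on promoters that they meet in the folded chromosome, and most of these meetings take place inside topologically associating domains, whose borders are often marked by the DNA-binding protein CTCF. Beyond its domain, a locus meets other loci less and less often as the distance along the chromosome grows. Genes far from an enhancer therefore tend to lie toward the low end of the contact scale. The 35 far genes belong to no common pathway: they include fibronectin, binding proteins of insulin-like growth factors, a subunit of the Ku DNA repair complex and several noncoding transcripts.

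Sequences are shown for pairs of genes that cannot be told apart in the tables, for the far genes at the extremes of the levels, and for the one miRNA among the members. DpnII, the enzyme used here, cuts at GATC, printed in capitals. Of the 35 far genes, 29 had an entry in the RefSeq promoter table (GRCm38.p6), and 7 of these (24.1%) held GATC in the 250 bases before the start, against 42.0% of 27025 genes in that table. GATC reads the same on both strands, and a match is a description of the window only. The 7 genes were Atic, Xrcc5, Smarcal1, Pinc, 6030407O03Rik, Fam124b and Cul3. The starts of Pecr and Tmem169, and those of Tnp1 and 1700027A15Rik, face away from each other across gaps of 51 and 136 bases with no GATC, here on the strand of the second gene:
Pecr and Tmem169: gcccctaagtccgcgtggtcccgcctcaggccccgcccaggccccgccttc
Tnp1 and 1700027A15Rik: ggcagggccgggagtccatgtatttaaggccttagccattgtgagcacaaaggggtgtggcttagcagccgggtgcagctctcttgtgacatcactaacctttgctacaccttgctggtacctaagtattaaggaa
Cul3 held 3 GATC sites in the 250 bases before its start, the most of any member, whereas Abca12, the highest far gene in WT, and Igfbp2, the highest in Inv1 and Inv3, held none (gene strand, 5′ to 3′):
Cul3: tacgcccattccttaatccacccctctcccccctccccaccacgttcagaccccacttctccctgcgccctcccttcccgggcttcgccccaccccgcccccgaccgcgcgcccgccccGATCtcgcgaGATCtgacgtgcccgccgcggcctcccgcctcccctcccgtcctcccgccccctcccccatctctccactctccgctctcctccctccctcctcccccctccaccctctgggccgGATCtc
Abca12: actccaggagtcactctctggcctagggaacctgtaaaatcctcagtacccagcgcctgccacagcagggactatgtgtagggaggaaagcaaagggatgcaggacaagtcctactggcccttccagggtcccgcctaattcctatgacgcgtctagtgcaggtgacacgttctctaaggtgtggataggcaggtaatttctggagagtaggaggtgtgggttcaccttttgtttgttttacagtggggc
Igfbp2: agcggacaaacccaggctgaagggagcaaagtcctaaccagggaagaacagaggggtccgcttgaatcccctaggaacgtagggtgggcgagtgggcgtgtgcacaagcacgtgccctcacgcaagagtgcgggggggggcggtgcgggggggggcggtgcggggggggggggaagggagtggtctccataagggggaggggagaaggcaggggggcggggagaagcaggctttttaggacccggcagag
Mir6351, the innermost far gene of the start, encodes a miRNA whose seed (bases 2 to 8) is in capitals:
mmu-miR-6351: uAGCGUUGcucagggagcacaug

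Levels of the far genes were low in each table and differed from table to table. In WT they lay between 0 and 0.574 scaled units, with a median of 0.188 and quartiles of 0.112 and 0.350. The Inv1 median was 0.305 and the highest level 1.21. The Inv2 median was 0.0158 with levels from -0.542 to 0.672, the Inv3 median 0.256 with levels from -0.596 to 1.499, and the Inv4 median 0.451 with levels from -0.659 to 1.79. The ratio of the far-gene median to that of WT was thus 1.62 for Inv1, 0.0841 for Inv2, 1.37 for Inv3 and 2.40 for Inv4. Values of Inv2, Inv3 and Inv4 include negative ones without a stated derivation. Their ratios to WT may therefore set unlike quantities side by side. The Inv2 median became 0 when genes sharing all values were counted once. The 68 rows between the ends had medians of 0.675, 1.83, 1.10, 2.47 and 3.21 in the same order of tables, WT first. Low values were not confined to the far genes: 6 of these rows were at 0 in WT. The lowest values of Inv2 (-0.870), Inv3 (-1.27) and Inv4 (-0.808) were also among them. The far genes supplied 9.16% of the summed level of the WT table, but 4.00%, 1.67%, 4.00% and 4.19% from Inv1 to Inv4.

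The plot of levels by gene shows each of these values.

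**Figure D1:**
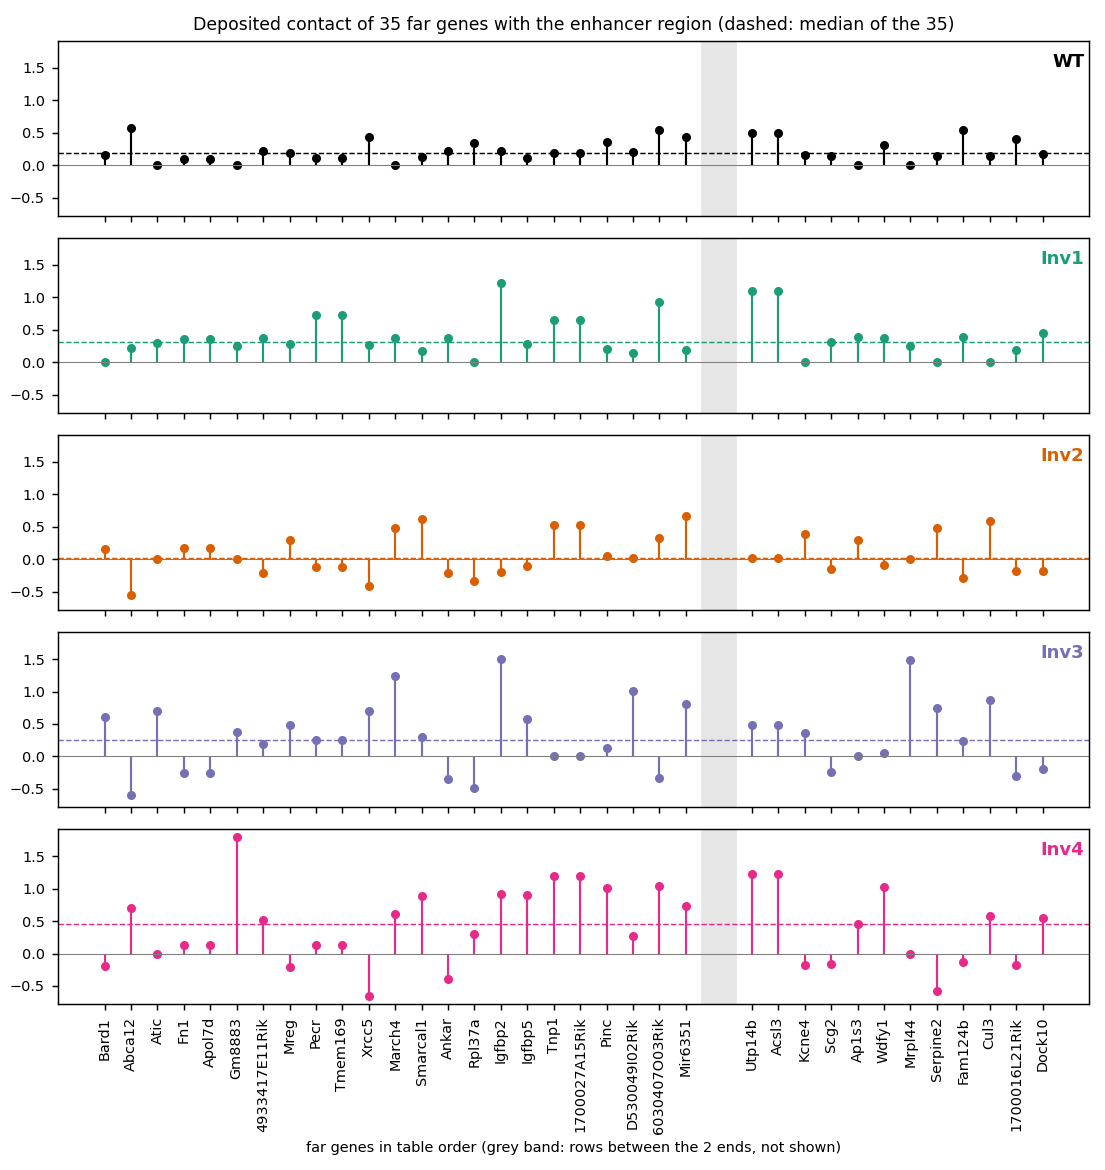
Deposited contact value (scaled units, vertical axis) of each of the 35 far genes (horizontal axis, table order, the rows between the ends left out at the grey band) in WT, Inv1, Inv2, Inv3 and Inv4, with the median of the 35 dashed. WT and Inv1 have no value below 0, whereas 14 far genes in Inv2, 9 in Inv3 and 9 in Inv4 are negative.

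The spread among far genes also differed. Their SD across genes was 0.172 in WT, 0.318 in both Inv1 and Inv2, 0.535 in Inv3 and 0.597 in Inv4. No far gene reached 1 scaled unit in WT or Inv2, whereas 3 did in Inv1, 4 in Inv3 and 8 in Inv4. This SD combines real differences between genes with measurement noise, and 1 library per condition gives no way to part them. The WT median was 0.188 at the start and 0.169 at the end. For Inv1 the start and end medians were 0.293 and 0.342, for Inv2 0.0221 and 0.00789, for Inv3 0.256 and 0.297, and for Inv4 0.514 and 0.226.

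Within both ends, level and distance from the inner edge had correlations below 0, of differing size. Spearman's rho between level and number of rows from the inner edge, over the 23 genes of the start, was -0.43, -0.09, -0.33, -0.10 and -0.49 from WT to Inv4. Over the 12 genes of the end it was -0.10, -0.34, -0.33, -0.19 and -0.29. These correlations are descriptions across genes that share 1 library, and neighbours can share reads. The 11 inner genes of the start had medians of 0.213, 0.279, 0.0476, 0.136 and 0.909 from WT to Inv4, and the 12 outer genes 0.112, 0.326, 0, 0.315 and 0.130. The 6 inner genes of the end had medians of 0.237, 0.381, 0.0158, 0.202 and 0.735, and the 6 outer genes 0.162, 0.217, -0.0865, 0.490 and -0.0670. Medians were thus higher in the outer genes at the start of Inv1 and at both ends of Inv3, and lower in the other cases.

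The innermost members and the rows next to them show how the boundary of the set was crossed. At the start, the inside rows were 6030407O03Rik, a noncoding transcript, at 0.539, 0.923, 0.331, -0.334 and 1.04 from WT to Inv4, and Mir6351, at 0.441, 0.183, 0.672, 0.805 and 0.731. The rows just outside, Tns1 and Rufy4, shared values of 0, 0.401, 0, 1.34 and 4.36 from WT to Inv4. Levels in WT were therefore higher just inside than just outside at this edge, and in Inv4 lower. At the end, the inside rows Utp14b and Acsl3 shared values of 0.498, 1.10, 0.0158, 0.487 and 1.23 from WT to Inv4. Outside them, Farsb was at 0.853, 0.426, 0.950, -0.112 and 0.629, and Mogat1 at 0.304, 0.643, 0.184, 0.0868 and 0.579. The end edge thus had no step in a common direction across tables.

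Of the far genes, 8 shared all their values with a neighbour, in 4 pairs: Fn1 with Apol7d, Pecr with Tmem169, Tnp1 with 1700027A15Rik, and Utp14b with Acsl3. A value of 1 member of a pair is therefore no second measurement, and the 35 genes hold 31 separate profiles.

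Zeros and negative values made up a large share of the far levels. In WT, 5 far genes were listed at 0, namely Atic, Gm8883, March4, Ap1s3 and Mrpl44, and the lowest value above 0 was 0.0910, for Fn1 and Apol7d. Inv1 also had 5 zeros, but in other genes: Bard1, Rpl37a, Kcne4, Serpine2 and Cul3. In Inv2 Atic, Gm8883 and Mrpl44 were listed at 0, in Inv3 Tnp1, 1700027A15Rik and Ap1s3, and in Inv4 Atic and Mrpl44. A gene at 0 in WT and above 0 in an inversion has no fold change. Calls of such genes below rest on a fixed value added to both tables.

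Negative values occurred in the Inv2, Inv3 and Inv4 tables only, and the deposited maps of the same 3 libraries also fell below 0, for 29.7%, 31.3% and 28.8% of their bin pairs with a value. Of the far genes, 40% were negative in Inv2 and 25.7% in each of Inv3 and Inv4. Among the 68 rows between the ends the shares were 16.2%, 5.88% and 4.41%. None of the 5 genes at 0 in WT was negative in any of these tables: in Inv2, 3 stayed at 0 and 2 were positive, in Inv3, 1 and 4, and in Inv4, 2 and 3.

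In Inv2 most negative far genes lay close to minus their WT value. The 14 values were -0.994 to -0.271 times the WT value of the same gene. For 7 of them, Pecr, Tmem169, Ankar, Rpl37a, Igfbp5, Scg2 and Dock10, the ratio lay between -0.994 and -0.992, within 1% of minus WT, and 11 lay within 10%. No Inv2 value was lower than minus WT, neither among the far genes nor among the 25 negative values of the whole table. The most negative Inv2 far gene was thus the highest in WT: Abca12, at 0.574 in WT and -0.542 in Inv2. The negative values of Inv3 were -2.75 to -0.620 times WT and those of Inv4 -3.87 to -0.247 times, with 2 of 9 and 3 of 9 within 10% of minus WT and 7 of 9 below it in each. How the tables were made was not tested.

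**Figure D2:**
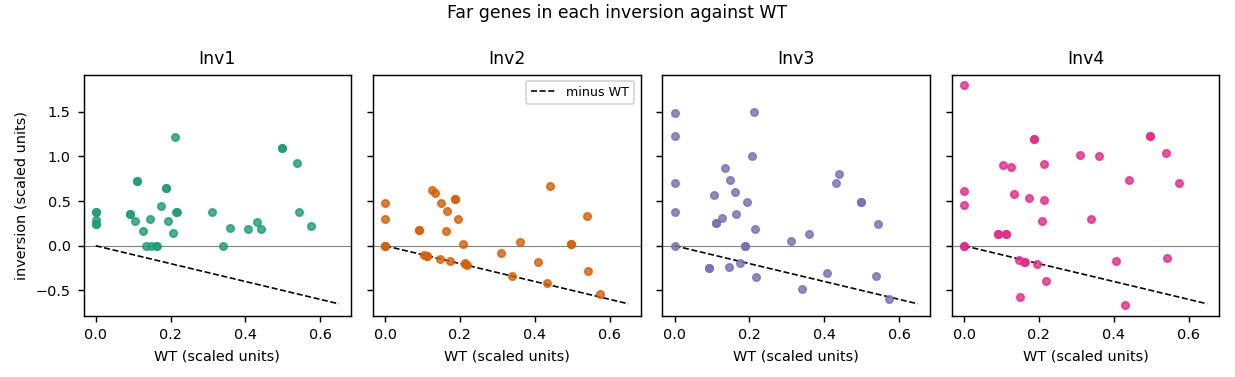
Level of each far gene in Inv1, Inv2, Inv3 and Inv4 (vertical axes, scaled units) against its level in WT (horizontal axes, scaled units), 1 point per gene, with the line of minus WT dashed. Negative Inv2 values lie on or above that line, while 7 far genes in Inv3 and 7 in Inv4 lie below it.

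The far levels of 1 table said little about those of another. Over the 35 genes, Pearson's r with WT was 0.25 for Inv1, -0.31 for Inv2, -0.29 for Inv3 and 0.12 for Inv4. Spearman's rho was 0.11, -0.31, -0.26 and 0.14. Among the inversions, r was highest for Inv1 with Inv4 (0.45), then 0.25 for Inv2 with Inv3 and 0.21 for Inv2 with Inv4. It was 0.05 for Inv1 with Inv3, -0.02 for Inv3 with Inv4 and -0.12 for Inv1 with Inv2. These are descriptions over genes of 1 library each, in which 4 pairs of points are identical. In Inv2, 11 of the 14 negative values lay within 10% of minus WT, and Inv3 and Inv4 hold negative values too. The part of this in the correlations was not tested. Counting each pair once (31 points) gave r of 0.21, -0.33, -0.37 and 0.05 with WT and 0.40 for Inv1 with Inv4. Low r with WT was not particular to the far genes. Over the 68 rows between the ends, r was -0.10, 0.02, -0.01 and -0.16 from Inv1 to Inv4, and rho 0.33, 0.14, 0.23 and -0.18.

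To compare the tables, log2 ratios to WT were taken after adding 0.5 scaled units to both values, with negative values set to 0. This compresses the changes of low genes such as these. Since Inv2, Inv3 and Inv4 hold negative values without a stated derivation, their values may be unlike those of WT. Their ratios to WT, differences from it and calls below need not be changes in contact. The 4 comparisons share the WT table, so a deviation of 1 WT value enters all of them. The median log2 ratio of the far genes was 0.32, -0.29, 0 and 0.17 from Inv1 to Inv4. Over all 103 genes the medians were 0.62, 0.0044, 0.81 and 1.08, and over the rows between the ends 1.09, 0.23, 1.19 and 1.5. The genes above WT numbered 23, 13, 17 and 23 of the 35, from Inv1 to Inv4. With the genes negative in either table left out the medians were 0.32, 0.20, 0.37 and 0.69. No far gene was negative in WT or Inv1. From Inv2 to Inv4 this filter therefore removes only genes low in the inversion, which raises the median by design. These filtered medians give no direction of change. The far median minus the median of all genes was -0.30, -0.29, -0.81 and -0.92.

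A change of more than 2-fold on this scale was counted as a call. In Inv1, 1 of 35 far genes was more than 2-fold above WT and none below, where 35.9% of all 103 genes were above and 3.88% below. The Inv2 table had 0 far genes above and 2 below, where 19.4% of all genes were above and 16.5% below. In Inv3, 6 were above and 2 below, against 45.6% and 10.7% of all genes. In Inv4, 6 were above and 1 below, against 52.4% and 6.8%. In either direction the far genes called were 2.86%, 5.71%, 22.9% and 20% of 35, beside 39.8%, 35.9%, 56.3% and 59.2% of all genes. Low values cannot fall far on this scale, and the far genes were low in WT. A call below needs a WT level of at least 0.5, which only Abca12, Fam124b and 6030407O03Rik had. Each far gene called below had a negative value in that inversion, which was set to 0. The calls above WT include genes listed at 0 in WT (Atic, March4 and Mrpl44 in Inv3, Gm8883 and March4 in Inv4), whose log2 ratios depend on the added 0.5 and are not folds. The counts rest on that added value: with 0.05 in its place, 23, 26, 26 and 24 far genes were past 2-fold in either direction from Inv1 to Inv4, and with 5 none was. Shares of all 103 genes were computed with 0.5 only. Whether far genes are called less often than all genes at 0.05 was therefore not tested.

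The balance of these calls depended on the common zero in each of the 4 comparisons. With the log2 ratios centred on the median of all genes, the far genes above and below numbered 0 and 6 for Inv1, 0 and 2 for Inv2, and 1 and 14 for Inv3 as for Inv4. The shares of all genes above and below were then 20.4% and 12.6% for Inv1, 19.4% and 16.5% for Inv2, 23.3% and 28.2% for Inv3, and 23.3% and 24.3% for Inv4. Centred on the median far gene, the far genes above and below numbered 0 and 1, 3 and 0, 6 and 2, and 4 and 3. Of all genes 25.2%, 27.2%, 45.6% and 44.7% were above and 5.83%, 6.8%, 10.7% and 8.74% below with this centring. Whether the far genes or the whole table keep a constant level cannot be told from the tables, since the factor between any 2 tables is not given.

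**Figure D3:**
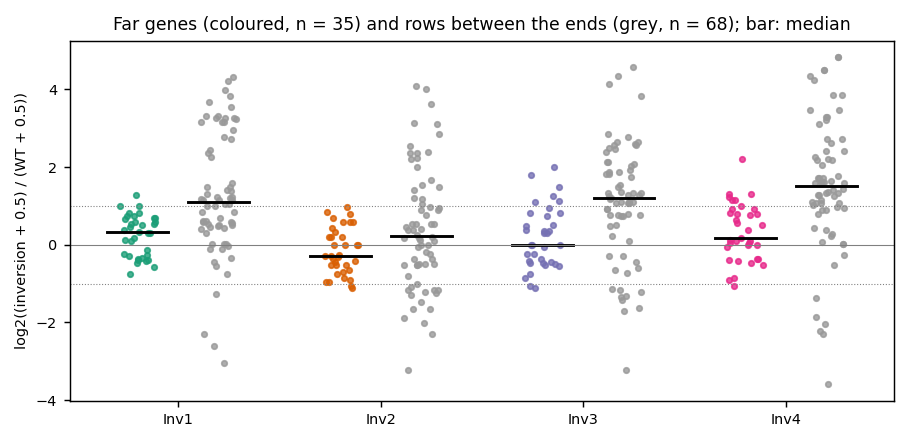
Log2 ratio of each inversion to WT with 0.5 scaled units added (vertical axis) for the 35 far genes (coloured) and the 68 rows between the ends (grey), 1 point per gene, bars at the medians and dotted lines at 2-fold. Far-gene medians are 0.32, -0.29, 0 and 0.17, beside grey medians of 1.09, 0.23, 1.19 and 1.5.

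Different estimates of the scale between tables gave different answers. The sum of the far levels over that of WT was 1.71, 0.344, 1.37 and 1.89 from Inv1 to Inv4. Among the genes positive in both tables (25, 16, 19 and 21 genes), the median ratio was 1.77, 1.76, 2.30 and 2.47, and the slope of a line through the origin 1.36, 0.807, 1.48 and 2.30. Over all 35 genes, negative values included, that slope was 1.26, 0.0137, 0.549 and 1.36. Inv3 was thus above WT by the slope over positive genes and below it by the slope over all 35. Inv2 was above WT by the median ratio and below it by the other measures. That median leaves out every gene at or below 0 in Inv2, so it leans towards genes high in Inv2. The same filter acts on the median ratios and first slopes of the other inversions, so none of these is an unbiased estimate of scale. Inv4 had the highest value by each of the 4 measures.

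The SD of the difference from WT over the 35 far genes was 0.321, 0.406, 0.608 and 0.601 scaled units from Inv1 to Inv4. Each exceeded the WT median level of 0.188. The mean difference was 0.160, -0.148, 0.0832 and 0.201. The SD over the rows between the ends was 6.01, 3.93, 5.70 and 6.29, which includes genes next to the breakpoints. The median absolute deviation, scaled to the SD of a normal distribution, depends less on such genes. For the far genes it was 0.432, 0.407, 0.540 and 0.711, and for the rows between the ends 1.59, 1.22, 1.95 and 2.54.

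Among far genes of the extracellular matrix and of growth factor binding, Igfbp2 had the highest far level of Inv1 and of Inv3, while Serpine2 was at 0 in Inv1 and Fn1 negative in Inv3. Igfbp2, which binds insulin-like growth factors, was at 0.213, 1.21, -0.197, 1.499 and 0.915 from WT to Inv4. Its log2 ratio was 1.27 in Inv1 and 1.49 in Inv3. Igfbp2 was more than 2-fold above WT in these tables, and in Inv2 it was negative. Igfbp5, a second binding protein of the family next to it on the chromosome, was at 0.104, 0.279, -0.104, 0.570 and 0.909 from WT to Inv4. Fn1, encoding fibronectin, was at 0.0910, 0.360, 0.181, -0.250 and 0.134, and Serpine2, a secreted protease inhibitor, at 0.149, 0, 0.479, 0.739 and -0.577. Of the 4 genes, Igfbp2 was the 1 called above WT in Inv1 and in Inv3, Igfbp5 the 1 in Inv4, and none was called in Inv2 or below WT. The shares of all 103 genes above WT were 35.9% in Inv1, 45.6% in Inv3 and 52.4% in Inv4. Their median log2 ratio was 0.45, -0.03, 0.88 and 0.54.

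Metabolic genes included the highest far level of WT. Abca12, a lipid transporter of the skin barrier, was at 0.574, 0.216, -0.542, -0.596 and 0.705 from WT to Inv4. It was the lowest far gene of Inv2 and Inv3, with a log2 ratio of -1.10 in both, which is the lowest this scale allows for its WT level. Pecr, an enoyl-CoA reductase of peroxisomes, was at 0.112, 0.722, -0.111, 0.256 and 0.126 from WT to Inv4. Acsl3, which activates long-chain fatty acids, was at 0.498, 1.10, 0.0158, 0.487 and 1.23. Pecr and Acsl3 were high in Inv1 without passing 2-fold, at log2 ratios of 1.00 (0.999 before rounding) and 0.68. Atic, an enzyme of purine synthesis, was listed at 0, 0.293, 0, 0.697 and 0 from WT to Inv4. Of these 4 genes, none was called in Inv1 or Inv4, 1 was called below in Inv2 (Abca12), and in Inv3 1 was called above (Atic) and 1 below (Abca12). Among all 103 genes, 16.5% were below in Inv2, and 45.6% were above and 10.7% below in Inv3.

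Genes of DNA repair and chromatin had no direction in common. Xrcc5, a subunit of the Ku complex that binds broken DNA ends, was at 0.431, 0.269, -0.414, 0.704 and -0.659 from WT to Inv4, where it was the lowest far gene. Smarcal1, a helicase that reanneals DNA at stalled forks, was at 0.126, 0.166, 0.624, 0.306 and 0.880. Bard1, the partner of BRCA1 in a ubiquitin ligase and the outermost row, was at 0.161, 0, 0.163, 0.605 and -0.187. The only call among the 3 was Smarcal1, above WT in Inv4, where 52.4% of all genes were. In that table Xrcc5 and Bard1 were negative.

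Ubiquitin ligase genes other than Bard1 were March4 and Cul3. March4, a membrane-bound ligase, was listed at 0 in WT and was at 0.379, 0.476, 1.23 and 0.616 from Inv1 to Inv4. Cul3, the scaffold of a ligase family, was at 0.135, 0, 0.591, 0.872 and 0.576 from WT to Inv4. March4, from a WT value of 0, was called above in Inv3 and Inv4, and Cul3 in Inv3. Counting Bard1 as well, 2 of 3 were called above in Inv3, where 45.6% of all genes were, 1 in Inv4, where 52.4% were, and none in Inv1 or Inv2, with medians of -0.34, 0.78, 1.11 and 0.76 from Inv1 to Inv4. March4 was above WT in all 4 tables, but its WT value of 0 enters each of them.

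No gene of vesicle and membrane traffic was called in any table, where 39.8%, 35.9%, 56.3% and 59.2% of all genes were from Inv1 to Inv4. Of the 35 far genes only 2.86%, 5.71%, 22.9% and 20% were called, so the lack of calls among these 4 genes is no trait of the class. Mreg, which acts in melanosome transport, was at 0.194, 0.279, 0.294, 0.488 and -0.209 from WT to Inv4. Ap1s3, a subunit of a clathrin adaptor, was at 0, 0.383, 0.305, 0 and 0.451. Wdfy1, an endosomal protein, was at 0.310, 0.379, -0.0842, 0.0498 and 1.02. Wdfy1 had its highest level in Inv4 and was close to 0 in Inv2 and Inv3. Dock10, the last row of the table, was at 0.174, 0.450, -0.173, -0.190 and 0.540 from WT to Inv4.

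Ribosome genes gave 1 call. Mrpl44, a protein of the mitochondrial ribosome, was listed at 0 in WT, Inv2 and Inv4, and was at 0.245 in Inv1 and 1.49 in Inv3. It was called above WT in Inv3, from a WT value of 0, where 45.6% of all genes were above. Rpl37a, of the large cytosolic subunit, was at 0.340, 0, -0.338, -0.486 and 0.302 from WT to Inv4, and had the lowest log2 ratio of Inv1 (-0.75). Utp14b, a ribosome assembly factor, shared the values of Acsl3 given above.

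Scg2 and Kcne4, each alone on its list, and Ankar were not called. Scg2, a protein of secretory granules, was at 0.146, 0.305, -0.145, -0.241 and -0.157 from WT to Inv4, negative in all 3 tables that hold negatives. Ankar, an ankyrin and armadillo repeat protein, was likewise negative in these tables, at 0.218, 0.381, -0.216, -0.348 and -0.398. Kcne4, a regulatory subunit of potassium channels, was at 0.164, 0, 0.388, 0.354 and -0.177. The levels of Scg2 and Ankar rank them low in Inv3 and Inv4 although their WT levels were close to the far median.

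Noncoding and predicted genes included the highest far level of all. Gm8883, a predicted gene, was listed at 0 in WT and Inv2, and was at 0.249 in Inv1, 0.374 in Inv3 and 1.79 in Inv4, where it was called above WT, from a WT value of 0. 6030407O03Rik, with the edge values given above, was more than 2-fold below WT in Inv3, with a log2 ratio of -1.06. D530049I02Rik was at 0.207, 0.139, 0.0221, 1.00 and 0.272, and was called above in Inv3. Its neighbours in the table did not share this rise in Inv3: Pinc, a noncoding RNA known from the mammary gland, was at 0.360, 0.201, 0.0476, 0.136 and 1.01. Mir6351 passed 2-fold in no table. 4933417E11Rik was at 0.214, 0.379, -0.204, 0.188 and 0.514, and 1700016L21Rik at 0.407, 0.190, -0.181, -0.304 and -0.173, negative in Inv2, Inv3 and Inv4. Of the 7 listed as noncoding or predicted, none was called in Inv1 or Inv2, 1 above and 1 below in Inv3, and 2 above in Inv4 (Gm8883 and 1700027A15Rik). Among all 103 genes, 45.6% were above and 10.7% below in Inv3, and 52.4% above in Inv4.

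The remaining members were Tnp1, Fam124b and the partners of shared values. Tnp1, which replaces histones in developing sperm, and 1700027A15Rik were at 0.188, 0.644, 0.526, 0 and 1.19 from WT to Inv4, and were called above in Inv4 (log2 ratio 1.30). Fam124b was at 0.542, 0.382, -0.287, 0.240 and -0.134 from WT to Inv4, and was called below in Inv2 and Inv4, at the limit of the scale (-1.06 in both). Tmem169, a membrane protein, had the values of Pecr, and Apol7d those of Fn1. In all, 11 far genes (31.4%) were called above WT in at least 1 inversion and 3 (8.57%) below, beside 66% and 22.3% of all 103 genes. A call below needs a WT level of at least 0.5, and only these 3 far genes had one. The share below was thus capped by the WT levels and is no result about change. No far gene was called in the same direction in 3 or more inversions.

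The contact maps were used to describe contact with the outer parts of the captured region. Whether each far gene lies in these parts was not tested, since gene positions in the build of the files were not used. Each map lists balanced contact between 10 kb bins over 10 Mb (mm9, chromosome 1). For the flanks, the outermost 2.5 Mb at each side were taken (chr1:71000001-73500000 and chr1:78500001-81000000), and for the Epha4 side the 260 kb that all 4 inversions carried (chr1:75620001-75880000, 26 bins), called the moved part here. The inversions shifted the centre of the moved part toward the start of the map by 330 kb, 470 kb, 670 kb and 800 kb from Inv1 to Inv4. Whether the authors' enhancer region lies in the moved part was not tested, and the WT gene table could not be rebuilt from the WT map: of 8130 windows tried, the best matched 27 of 79 distinct values above 0.

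Contact of the moved part with the start flank was 1.83% of all its contacts in WT, 2.28%, 1.86%, 2.09% and 3.42% from Inv1 to Inv4. Contact with the end flank was 2.44%, 1.80%, 1.34%, 1.42% and 1.83% from WT to Inv4. Contact with the end flank was thus below WT in each inversion. Contact with the start flank was above WT in Inv1, Inv3 and Inv4, while the Inv2 value was close to that of WT. As folds of WT, the start flank was at 1.25, 1.02, 1.14 and 1.87 and the end flank at 0.737, 0.552, 0.584 and 0.750. In Inv2 to Inv4, between 23.5% and 32.9% of the bin pairs with a flank were negative. Their shares are therefore signed sums over a signed total, unlike those of WT and Inv1. Folds of WT for Inv2 to Inv4 thus set unlike quantities side by side. The 95% counting intervals were 1.77 to 1.88% in WT and 2.21 to 2.36% in Inv1 for the start flank, and 2.36 to 2.51% and 1.72 to 1.87% for the end flank. They do not overlap, but cover counting error only, and none was available for Inv2 to Inv4, whose maps hold negative values.

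The far-gene medians of the tables are set beside these values by end. Relative to WT, the start and end medians were 1.56 and 2.02 for Inv1, 0.118 and 0.0467 for Inv2, 1.37 and 1.76 for Inv3, and 2.74 and 1.33 for Inv4. In the tables the start ratio was above the end ratio in Inv2 and Inv4, and below it in Inv1 and Inv3. In the maps the start fold was above the end fold in all 4 inversions, with signed shares in Inv2 to Inv4. Whether a table median is above or below WT itself depends on the unknown factor between tables.

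**Figure D4:**
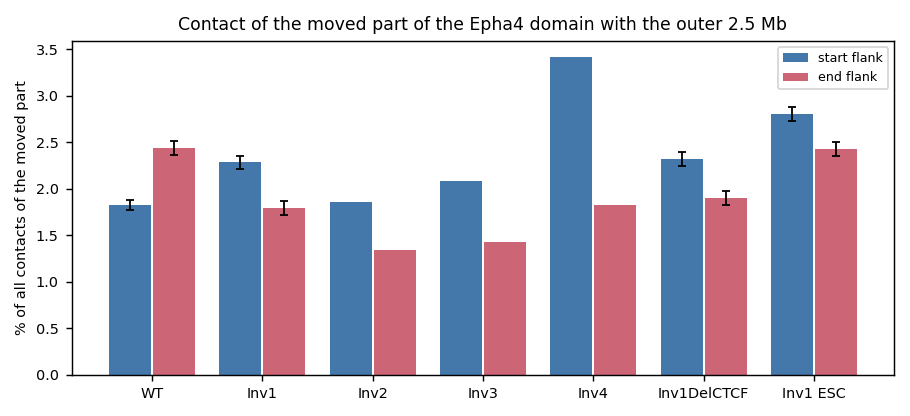
Contact of the moved part with the start flank and the end flank (bars, percent of all its contacts, vertical axis) in 7 libraries (horizontal axis), with 95% counting intervals where read pairs were recovered. The end flank is 2.44% in WT, between 1.34% and 1.90% in the limb bud libraries with an inversion, and 2.43% in Inv1 ESC. Bars of Inv2, Inv3 and Inv4 are signed sums over a signed total.

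The libraries with the Inv1 arrangement without gene tables gave similar flanks in limb buds and higher ones in ESCs. In Inv1DelCTCF the moved part had 2.32% of its contacts with the start flank and 1.90% with the end flank. In Inv1 ESC the shares were 2.81% and 2.43%, and their sum was 5.23% against 4.08% in Inv1 limb buds and 4.26% in WT. As a background, the 390 bins between the flanks outside the inverted span had 10.4%, 10.6%, 10.3%, 10.5% and 12.8% of their contacts with both flanks from WT to Inv4, 10.7% in Inv1DelCTCF and 11.9% in Inv1 ESC. Inv4 and Inv1 ESC thus had higher shares with the flanks across the rest of the map as well, at 1.23 and 1.14 times WT. The part of this in their values for the moved part was not tested. Shares of Inv2 to Inv4 are signed sums here too.

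Depth per value in the flanks was low. The maps held 5155260 read pairs in WT, 3903613 in Inv1, 3997506 in Inv1DelCTCF and 4305975 in Inv1 ESC. These totals include bins closer than 1.5 Mb, for which the recovery of read pairs was not scored. Between the moved part and the start flank, WT had 0.780 read pairs per pair of 10 kb bins and Inv1 0.720, and with the end flank 0.887 and 0.462. In WT 49.2% of the bin pairs with the start flank were not listed and 32% held 1 read pair. Summed over the 26 bins of the moved part, the median 10 kb bin of the start flank held 18 read pairs in WT and 16.5 in Inv1, and that of the end flank 20 and 11. Most single bin pairs of the flanks thus rest on at most 1 read pair, while sums over a flank rest on 2976 to 5742 read pairs in WT and Inv1.

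Profiles along the flanks showed the gain from summing. Across the bins of the start flank, single 10 kb bins of the moved part in WT and Inv1 had a median Pearson r of 0.05, and the moved part as a whole 0.58. In the end flank the values were 0.03 and 0.57. Negative r appeared at single bins between WT and the maps with negative values only: -0.34 for Inv2, -0.22 for Inv3 and -0.12 for Inv4 in the start flank. With the whole moved part these became 0.22, 0.16 and 0.35. For the whole moved part, Inv1 and Inv1DelCTCF had the highest r of the pairs compared, 0.71 in the start flank. In the end flank their r was 0.51, below those of WT with Inv1 (0.57), Inv1DelCTCF (0.58) and Inv1 ESC (0.64). These correlations are over 246 to 250 bins that share a library and a decline with distance, and those with WT share its map.

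**Figure D5:**
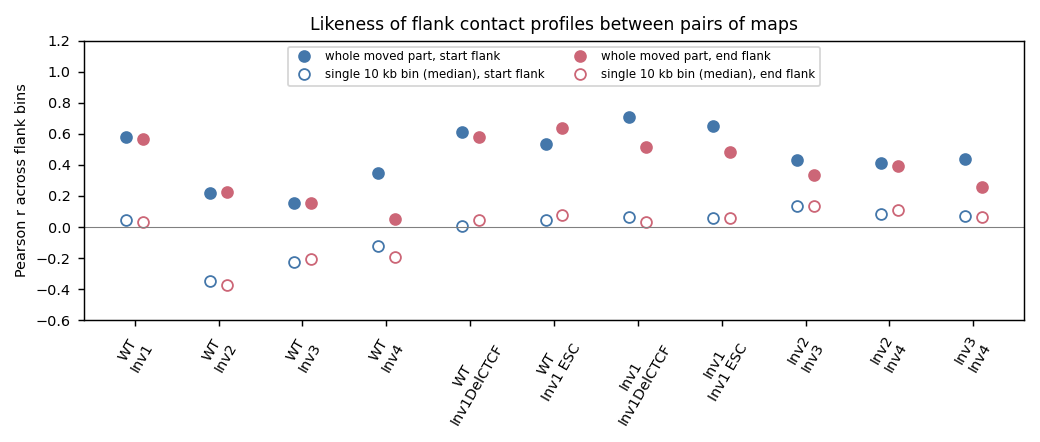
Pearson r (vertical axis) between the contact profiles of pairs of maps (horizontal axis) along the start and end flanks, for the whole moved part (filled) and as the median over its single 10 kb bins (open). Single bins of WT against Inv2, Inv3 and Inv4 lie below 0, and all filled points lie above 0.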

How the data were processed

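Capture Hi-C of 7 libraries (1 per condition) was analysed; groups came from the titles. Reads were processed with Bowtie2 2.2.6 and Juicer on mm9, per the submitters' processing notes, which do not assign a step to either tool. Maps were filtered at MAPQ30 and KR-balanced by the authors, per their file names. The deposited gene tables and maps of WT and Inv1, and the maps of Inv1DelCTCF and Inv1 ESC, hold scaled or balanced signal. Those of Inv2, Inv3 and Inv4 hold negative values and were treated as a score that the authors deposited without a stated derivation.

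From these, levels, differences and log2 ratios (pseudocount 0.5, negatives set to 0) were computed with Python 3.11.15, numpy 2.4.6 and pandas 2.3.3. Read pairs of WT, Inv1, Inv1DelCTCF and Inv1 ESC were recovered by fitting 1 factor per bin. The fit used bins at least 1.5 Mb apart. Of values up to 20 read pairs at these distances, 100% were whole within 0.1, and nearer bin pairs were not scored. For Inv2, Inv3 and Inv4 the factors were fitted to the negative values with their sign reversed, and no read pairs were recovered. The inverted spans were found by matching the factors of each mutant to those of WT read backwards. Only the bins of the moved part were then read in the order of WT, and the maps were otherwise left at file coordinates. A bin was dropped when it listed fewer than 25% of the median count of pairs. The scripts were tested on simulated data, in which the maps held no negative values. The members, role lists and tests were chosen with earlier results of these data known. Named genes were the highest and lowest 3 per table and comparison, genes at the edges and members of the role lists (29 of 35 genes), and all 35 are accounted for.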

Additional observations from a re-analysis of the deposited data

How the results depend on the processing

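Alternatives were the pseudocount, negative values left out or set to 0, another centring, genes of shared values counted once, each end alone, and the rows nearest the inner edge left out. For the maps they were a stricter bin filter, narrower flanks and file coordinates. No paired analysis was possible because each condition was 1 library. The median level of Inv4 was 0.451, but 0.302 without the 3 rows nearest the inner edge and 0.226 at the end alone. The Inv2 median of 0.0158 became 0 without those rows or with shared values counted once. The median log2 ratio moved with a pseudocount of 0.05 to 0.72 in Inv1 and -1.63 in Inv2, and turned to 0.20 in Inv2 without negative genes. Leaving out negative genes also took it from 0 to 0.37 in Inv3 and from 0.17 to 0.69 in Inv4. Since WT had no negative far gene, this removes only genes low in the inversion and raises the median by design. The number of far genes over 2-fold was 23, 26, 26 and 24 in Inv1 to Inv4 with a pseudocount of 0.05, and 0 in each with 5. Shares of all genes at these pseudocounts were not computed. At the end alone it was 0, 1, 2 and 1, at the start alone 1 in Inv2, and without negative genes 0 in Inv2. Centred on all genes it was 6 in Inv1, 15 in Inv3 and 15 in Inv4. With each table divided by its median far gene, the SD of the difference was 1.203 in Inv1, 2.51 in Inv3 and 1.52 in Inv4; in Inv2, whose median is near 0, this was not run. With flanks of 2 Mb, contact of the moved part with both was 3.01%, 2.95%, 2.30%, 2.48% and 3.82% from WT to Inv4, 3.05% in Inv1DelCTCF and 3.82% in Inv1 ESC. At file coordinates it was 3.04%, 3.64% and 6.003% from Inv2 to Inv4, and 3.94% in Inv1DelCTCF. All these shares are signed sums over a signed total in Inv2 to Inv4.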
